A study of Mus musculus with 9 samples.

Results

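Type I interferon-stimulated genes were followed in microglia, the macrophages that reside in brain tissue, from an amyloid mouse model with and without floxed connexin 43 (Cx43). The set held 37 genes listed by symbol, and rows of the table were matched to it by symbol alone. Of these, 35 had a row among the 18571 genes of the expression table, and all 35 passed the filter on low counts that left 14696 genes to test. Mx1 and Mx2, antiviral GTPases, matched no row and are not analysed here.

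Poly-A RNA was sequenced in 9 libraries with single reads of 50 nt, in 3 groups of 3, to ask what microglial Cx43 does in Alzheimer's disease. All mice were 9 months old on a C57BL6/j background, and the labels give all of them the same tamoxifen gavage of 0.1 mg/g for 5 days at 8 months of age. The wild-type group (WT) has no transgene in its labels. APP/PS1 mice carry transgenes for mutant amyloid precursor protein and presenilin and form amyloid plaques. The third group, APP/PS1:Cx3cr1-CreER:Cx43-flox/flox, is called cKO here, for conditional knockout. It carries the same disease transgenes, a tamoxifen-activated Cre recombinase under the control of Cx3cr1, and loxP-flanked Cx43 alleles. No group carried Cx3cr1-CreER without floxed Cx43, so these alleles cannot be told apart. Neither the promoter of the disease transgenes nor the number of mice behind a library is given in the sources used here. Cx3cr1 is also active in monocytes and in macrophages at the borders of the brain. Cells were caught on plates by an antibody to CD45, a protein of all leukocytes, after the meninges had been removed.

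Total estimated counts ran from 18907681 to 19565354 per library. Levels are given as CPM, the usual per-library scaling of counts, on library sizes adjusted by the trimmed mean of M values (TMM), unless TPM, the scale that also divides by transcript length, is named. All 10 listed microglial markers were detected, with mean sums of 19210 CPM for WT, 23330 CPM for APP/PS1 and 20130 CPM for cKO. They did not move together: Cx3cr1, the fractalkine receptor gene that the Cre driver is named for, was at 2260, 2231 and 1214 CPM and Fcrls at 195, 1583 and 1246 CPM. Gja1, the gene of Cx43, was at 33.6 CPM ± 1.77 for WT, 39.7 CPM ± 2.72 for APP/PS1 and 26.9 CPM ± 1.42 for cKO (SD, n = 3). Gja1 is also 1 of 11 listed astrocyte markers, whose mean sums were 566, 776 and 595 CPM in the same order of groups. Of these 11, 9 were higher and 1 lower in APP/PS1 than in WT, and 10 were lower in cKO than in APP/PS1. Against WT, 5 were higher and 5 lower in cKO, and the part of astrocytes in the Gja1 level was not tested. The Y-linked gene Ddx3y had 0 to 2 counts in the cKO libraries and at least 4137 in every other library, so genotype and sex-linked expression cannot be told apart in either comparison with cKO. Markers of other blood cells also moved with the groups. The 16 neutrophil markers summed to 3625 to 3657 CPM across the WT libraries, 1499 to 1568 CPM across APP/PS1 and 10330 to 10450 CPM across cKO. All 16 were lower in APP/PS1 than in WT, all 16 were higher in cKO than in APP/PS1, and 15 were higher in cKO than in WT. The 10 monocyte markers summed to 1740 to 1826 CPM, 1195 to 1256 CPM and 1875 to 1939 CPM in the same order of groups, and 1 of them, Ms4a4c, is itself in the second interferon list used below. Of these, 9 were lower in APP/PS1 than in WT and 8 were higher in cKO than in APP/PS1, while 4 were higher and 4 lower in cKO than in WT. Summed markers of plasmacytoid dendritic cells, a strong source of type I interferon, were at 19.9 to 23.1 CPM, 55.9 to 63.9 CPM and 65.5 to 68.05 CPM. Of 6 tested, 3 were higher and 2 lower in APP/PS1 than in WT, and 3 higher and 3 lower in cKO than in APP/PS1, with Cox6a2 at 2.35, 27.9 and 21.8 CPM and Ccr9 at 2.01, 0.596 and 1.12 CPM. None of the markers in these lists was at 0 in every library.

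Type I interferons are secreted when cells sense foreign or misplaced nucleic acid. They bind the Ifnar1 and Ifnar2 receptor chains, whose kinases Jak1 and Tyk2 start a phosphorylation cascade. Stat2 and Irf9 are subunits of the resulting complex ISGF3, which binds the interferon-stimulated response element (ISRE) of target promoters. The targets block viral entry, translation and replication, sense nucleic acid, or regulate the pathway itself. In the brain, microglia and infiltrating leukocytes respond to interferon, and such responses are known around amyloid plaques and in ageing.

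The promoters of the set were searched for this element, because it is the sequence its members are known to share. RefSeq promoter entries on GRCm38.p6, which run from 250 bases before to 50 bases after the start of a transcript, were matched by gene ID for 27 of the 35 genes. The core searched was GAAANNGAAA on either strand, with overlapping matches allowed, and N stands for any base. It was found in 17 of the 27 genes (63%), against 3.99% of 27025 genes with an entry. The core of the gamma-activated site, TTCNNNGAA, which is its own reverse complement and can overlap an ISRE core, was found in 6 of 27 (22.2%) against 9.55%. Oas2, Usp18, Rtp4, Ifi27l2a, Dhx58, Zbp1, Parp14 and Ifi204 were the members not matched to an entry. Members with an entry but no ISRE core were Ifit2, Isg20, Oasl1, Oasl2, Irf7, Irf9, Xaf1, Ifi44, Ifi35 and Cmpk2. Stretches of 80 bases are shown for 6 members picked among those that had a core. Each runs 5′ to 3′ on the strand of its gene, and the capitals mark ISRE cores on either strand.
Oas3 (chr5:120777690-120777769, minus strand): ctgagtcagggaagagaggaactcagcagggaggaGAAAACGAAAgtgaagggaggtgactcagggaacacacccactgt
Rsad2 (chr12:26456528-26456607, minus strand): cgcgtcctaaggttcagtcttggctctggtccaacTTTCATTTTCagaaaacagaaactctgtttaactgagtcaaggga
Ifit1 (chr19:34640769-34640848, plus strand): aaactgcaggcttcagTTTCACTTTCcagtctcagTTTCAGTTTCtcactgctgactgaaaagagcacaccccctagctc
Bst2 (chr8:71537558-71537637, minus strand): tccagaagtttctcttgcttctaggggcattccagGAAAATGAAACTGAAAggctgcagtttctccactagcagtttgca
Isg15 (chr4:156200852-156200931, minus strand): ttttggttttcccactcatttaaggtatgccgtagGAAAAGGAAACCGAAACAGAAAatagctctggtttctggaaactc
Ifitm3 (chr7:141010698-141010777, minus strand): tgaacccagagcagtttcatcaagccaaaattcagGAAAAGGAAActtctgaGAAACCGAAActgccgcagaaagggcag
The single core of Oas3 began at position -75 from the start and that of Rsad2 at position -120. Ifit1 held a pair of separate cores at positions -104 and -85, Bst2 an overlapping pair at -130 and -124, and Isg15 a run of 3 overlapping cores at -78, -72 and -66. In Ifitm3 both cores lay past the start, at positions 2 and 19. These 6 genes share the letters of the core. Ifit1, Isg15 and Ifitm3 shared an order of mean levels across the groups, Oas3 and Rsad2 shared another, and Bst2 differed from both. A link between the core and the order was not tested. A match is a description of these windows and not a measured binding site.

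Measured against WT, 28 members were past the threshold in APP/PS1 (80% of 35), 19 of them higher and 9 lower. A gene passed at a Benjamini-Hochberg adjusted p under 0.05 in the edgeR quasi-likelihood test, adjusted over all 14696 genes tested. Over all of those genes 59% passed, 26.9% higher and 32% lower, so the share of members called higher was above the background and the share called lower was below it. The median log2 change was 0.17 over the members and -0.04 over all genes. The members were thus split in the amyloid model, with Ifi27l2a and Bst2 highest and Oas3, Oasl1 and Oas2 lowest. The direction of the smaller rises rested on the scale, since on log2(TPM + 1) 5 members were higher and 19 lower, where the median of all genes was itself -0.35.

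Within the amyloid model, 26 members differed between cKO and APP/PS1 (74.3%), 21 higher and 5 lower. The background was 55% of all genes past the threshold, 27.3% higher and 27.7% lower. The median log2 change was 0.22 over the members and -0.01 over all genes. The largest rises were those of Oas3, Rsad2, Oasl1 and Oas2, each more than 2-fold, and the largest falls were those of Ifi27l2a and Bst2. Both comparisons use the same APP/PS1 libraries, so their signs are not independent, and the levels in all 3 groups are given below for that reason.

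cKO stood above WT for most of the set. Of the members, 29 passed (82.9%), 28 of them higher and only Ifi207 lower, against 47.7% of all genes, 24.7% higher and 23% lower. The median log2 change was 0.39 over the members and -0.01 over all genes. The summed level of the 35 members was 1085 CPM ± 29.5 for WT, 1226 CPM ± 4.04 for APP/PS1 and 1414 CPM ± 20.5 for cKO (SD, n = 3), and the libraries of the 3 groups did not overlap. Within that sum, Bst2 was at 47.4 CPM for WT and 107.5 CPM for APP/PS1, and Ifi27l2a at 16.8 and 67.5 CPM. The step of the sum from WT to APP/PS1 was not shared by all members, since 9 were called lower there. In bulk RNA a difference between groups can come from more cells of a type or from more RNA per cell, and these cannot be told apart. The labels do not say whether the libraries of a group came from separate animals, so the p-values measure only the spread between these libraries, at a biological coefficient of variation of 3.14%. For a single gene, an exact permutation test of 3 against 3 libraries cannot go below p = 0.1.

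**Figure D1:**
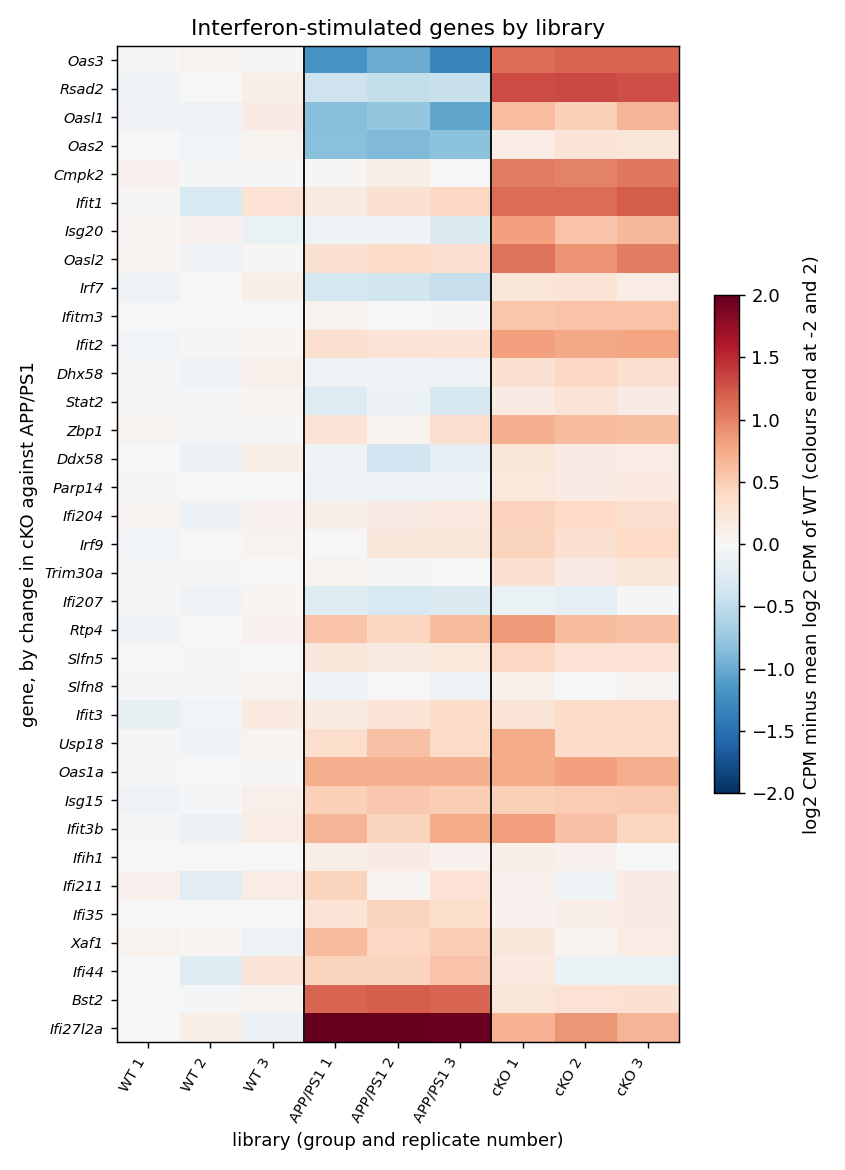
Level of the 35 interferon-stimulated genes (rows, ordered by their change between cKO and APP/PS1) in the 9 libraries (columns), as log2 CPM minus the mean log2 CPM of WT, with colours ending at -2 and 2. Red is above the WT mean and blue below it: Oas3, Oasl1, Oas2 and Rsad2 are blue in all 3 APP/PS1 libraries and red in all 3 cKO libraries, while Bst2 and Ifi27l2a are darkest red in APP/PS1.

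Mean levels ran in several orders across the groups. They rose from WT through APP/PS1 to cKO in 15 members, and were lowest in APP/PS1, intermediate in WT and highest in cKO in 11. Another 7 were lowest in WT, intermediate in cKO and highest in APP/PS1, and Ifi207 and Ifi44 had orders of their own. These are orders of means, and some steps did not pass, such as that of Isg15 from APP/PS1 to cKO (48.5 and 48.6 CPM). By calls, 7 members passed as higher in all 3 comparisons (Ifit1, Ifit2, Oasl2, Irf9, Zbp1, Slfn5 and Ifi204). A further 8 were lower in APP/PS1 than in WT and higher in cKO than in either other group (Oasl1, Oas2, Oas3, Irf7, Stat2, Rsad2, Ddx58 and Parp14). The rise over WT in cKO was not past the threshold for 5 of these 8 (Oas2, Irf7, Stat2, Ddx58 and Parp14) with library totals, FPKM or TPM. Slfn8 and Ifi211 passed in no comparison in the main edgeR fit, which has no replicate block. The order with APP/PS1 lowest and cKO highest is also that of the summed neutrophil and monocyte markers, and the part of these cells in the result was not tested.

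**Figure D2:**
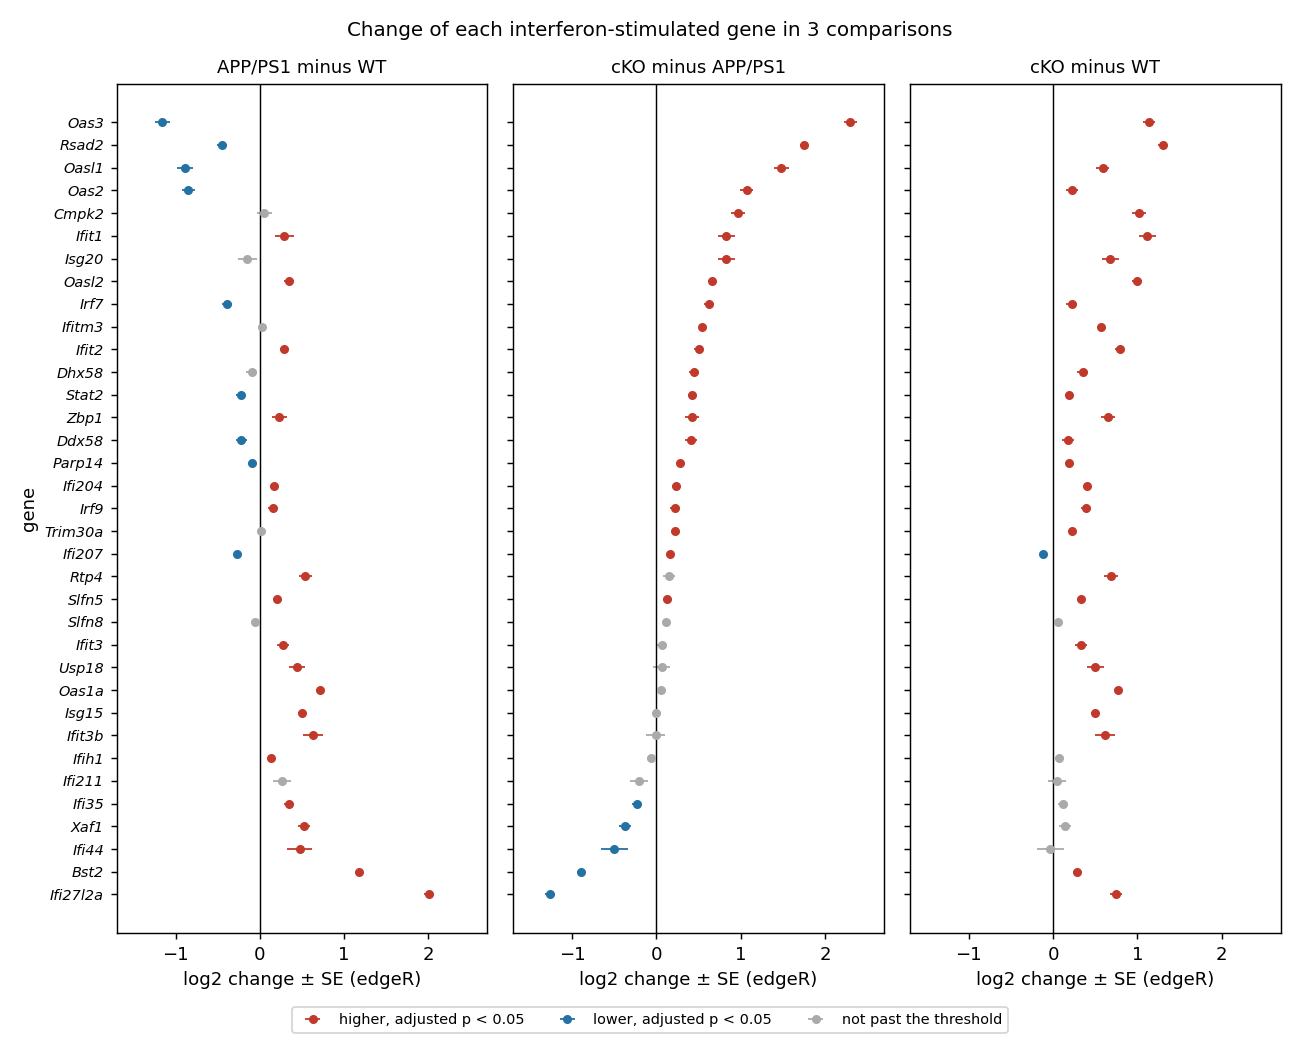
Log2 change of each of the 35 genes in the 3 comparisons, with its standard error (edgeR fit); red is higher and blue lower at an adjusted p under 0.05, grey did not pass. From left to right, the panels hold 19, 21 and 28 genes higher and 9, 5 and 1 lower.

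Among the transcription factors, Irf7 and Stat2 fell in APP/PS1 and rose in cKO, while Irf9 rose in both steps. Irf7, the factor that amplifies interferon alpha production, was at 33.4, 35.5 and 38.8 CPM in the WT libraries, 28.1, 27.9 and 26.1 CPM in APP/PS1 and 42.5, 43.4 and 39.9 CPM in cKO. The groups did not overlap. The log2 change was -0.39 in APP/PS1 against WT (SE 0.06, edgeR adjusted p = 2.57e-06), 0.62 in cKO against APP/PS1 (SE 0.06, adjusted p = 1.05e-09) and 0.22 in cKO against WT (SE 0.06, adjusted p = 0.00144). The last of these was 0.12 with library totals (adjusted p = 0.0782) and 0.01 on log2(TPM + 1) (limma adjusted p = 0.933). Stat2, the ISGF3 subunit that carries the activation domain, was at 45.8, 46.1 and 48.3 CPM in WT, 38.9, 43.2 and 37.6 CPM in APP/PS1 and 52.5, 55.7 and 52.1 CPM in cKO. These groups did not overlap either, and the log2 changes were -0.23, 0.42 and 0.19 in the same order of comparisons (SE 0.05 each, adjusted p = 0.000531, 1.17e-07 and 0.00231). The fall of Stat2 in APP/PS1 was -0.10 and not past the threshold with offsets for GC content and transcript length (adjusted p = 0.0882), and its rise over WT in cKO came to -0.00 on log2(TPM + 1). Irf9, the DNA-binding subunit of ISGF3, was at 42.4, 44.2 and 46.3 CPM in WT, 44.1, 51.8 and 52.6 CPM in APP/PS1 and 60.5, 54.9 and 58.3 CPM in cKO. APP/PS1 library 1 lay within the WT range, and the rise over WT of 0.16 (SE 0.06, adjusted p = 0.0246) turned to -0.23 on log2(TPM + 1). In cKO, Irf9 was 0.22 above APP/PS1 (SE 0.06, adjusted p = 0.00226) and 0.39 above WT (SE 0.06, adjusted p = 8.52e-06).

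Usp18, the protease that removes Isg15 from proteins and dampens receptor signalling, was higher in both amyloid groups than in WT. It was at 8.49, 7.93 and 8.67 CPM in WT, 10.7, 12.6 and 10.9 CPM in APP/PS1 and 13.9, 10.8 and 10.7 CPM in cKO. cKO overlapped APP/PS1, and its mean was drawn up by library 1. The log2 change was 0.44 in APP/PS1 (SE 0.10, edgeR adjusted p = 0.000607) and 0.50 in cKO (SE 0.10, adjusted p = 0.000212) against WT, and 0.06 between them (SE 0.10, adjusted p = 0.661). On log2(TPM + 1) the APP/PS1 change was 0.05 and did not pass (limma adjusted p = 0.679).

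The RNA helicases that sense viral RNA moved little in APP/PS1 in the main edgeR fit. Ifih1, which encodes MDA5, had a mean of 40.04 CPM for WT, 43.8 CPM for APP/PS1 and 42.1 CPM for cKO, and its log2 change of 0.13 in APP/PS1 (edgeR adjusted p = 0.02) turned to -0.01 with library totals and -0.21 on log2(TPM + 1). Ddx58, which encodes RIG-I, was at 38.5, 33.06 and 43.8 CPM in the same order of groups. It changed by -0.22 in APP/PS1 (SE 0.07, adjusted p = 0.00883) and was 0.41 higher in cKO than in APP/PS1 (SE 0.07, adjusted p = 3.71e-05). Dhx58, which encodes the regulator LGP2, had means of 19.9, 18.6 and 25.4 CPM. It rose by 0.45 over APP/PS1 (SE 0.06, adjusted p = 9.04e-07) and by 0.35 over WT (SE 0.06, adjusted p = 2.78e-05) in cKO. In APP/PS1, Dhx58 changed by -0.10 in the main fit (SE 0.06, adjusted p = 0.198) and by -0.08 with GC and length offsets (adjusted p = 0.267). There it was called lower with library totals (-0.24, adjusted p = 0.00224) and on log2(TPM + 1) (-0.46, limma adjusted p = 9.83e-06). Zbp1, a sensor of left-handed nucleic acid that can start necroptosis, had means of 9.76, 11.4 and 15.3 CPM. It rose in each step, by 0.23 in APP/PS1 (SE 0.09, adjusted p = 0.026), which was 0.09 and not past the threshold with library totals, and by a further 0.42 in cKO (SE 0.08, adjusted p = 7.14e-05).

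The oligoadenylate synthetases, which make the messenger that switches on RNase L, held the widest contrast of the set. Oas3 was at 13.1, 13.9 and 12.9 CPM in WT, 5.84, 6.67 and 5.39 CPM in APP/PS1 and 28.8, 29.7 and 29.7 CPM in cKO. The lowest cKO library lay above every WT library and the highest APP/PS1 library below every WT library. Its log2 change was -1.16 in APP/PS1 against WT (SE 0.09, edgeR adjusted p = 1.35e-11), 2.30 in cKO against APP/PS1 (SE 0.08, adjusted p = 3.87e-19), a 4.92-fold difference, and 1.14 in cKO against WT (SE 0.07, adjusted p = 5.23e-14). Oas2, its neighbour on chromosome 5, was at 16.2, 15.7 and 17.1 CPM in WT, 9.12, 8.88 and 9.27 CPM in APP/PS1 and 18.2, 19.8 and 19.4 CPM in cKO. The pattern was that of Oas3, with a smaller step above WT: the log2 changes were -0.85 (SE 0.08, adjusted p = 3.43e-10), 1.07 (SE 0.08, adjusted p = 2.47e-12) and 0.23 (SE 0.07, adjusted p = 0.00618). That step above WT did not pass with the DESeq2 Wald test (0.25, adjusted p = 0.0517), library totals (0.12, adjusted p = 0.132) or log2(TPM + 1) (0.03, limma adjusted p = 0.67). Oas1a, the third member at this locus, was at 19.5, 19.9 and 20.3 CPM in WT, 32.7, 32.6 and 32.4 CPM in APP/PS1 and 33.2, 35.1 and 33.0 CPM in cKO. It went the other way in APP/PS1, rising by 0.71 (SE 0.05, adjusted p = 1.18e-11), and differed from APP/PS1 in cKO by 0.05 (SE 0.05, adjusted p = 0.392). That difference passed with GC and length offsets (0.13, adjusted p = 0.0202) and on log2(TPM + 1) (0.27, limma adjusted p = 5.66e-05). In GRCm38.p6 the 3 genes lie at chr5:120730333-120749886 (Oas2), chr5:120753098-120777684 (Oas3) and chr5:120896256-120907544 (Oas1a). Of the 50-nt windows of the longest Oas1a transcript, 57.6% occur in another gene, most often Oas1g, so its counts could be split with that copy, against 0.792% for Oas3 and none for Oas2.

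The related Oasl genes, which lie side by side at chr5:114896926-114912245 (Oasl2) and chr5:114923143-114937911 (Oasl1), also parted in APP/PS1. Oasl1, whose protein limits Irf7 translation, was at 11.2, 11.03 and 13.2 CPM in WT, 6.5, 6.89 and 5.77 CPM in APP/PS1 and 18.2, 16.5 and 18.9 CPM in cKO. The groups did not overlap, and the log2 changes were -0.89 (SE 0.10, edgeR adjusted p = 2.28e-08), 1.48 (SE 0.09, adjusted p = 3.71e-13) and 0.59 (SE 0.08, adjusted p = 1.25e-06). Oasl2 was at 24.7, 22.4 and 23.9 CPM in WT, 29.3, 30.5 and 30.01 CPM in APP/PS1 and 49.96, 43.99 and 47.9 CPM in cKO. It climbed in both steps, by 0.34 (SE 0.06, adjusted p = 2.44e-05), which turned to -0.07 on log2(TPM + 1), and by 0.66 (SE 0.05, adjusted p = 6.88e-11). Of all members, Oasl2 followed the mean standardised level of the set most closely over the 9 libraries (Pearson r = 0.99, a description without a test). That mean includes each member itself, which raises its r, and the values ran down to -0.22 for Ifi207.

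Rsad2 and Cmpk2 are neighbours on chromosome 12, at chr12:26442743-26456452 and chr12:26469117-26479837. Rsad2 encodes viperin, which makes a chain-terminating nucleotide, and Cmpk2 a mitochondrial nucleotide kinase that supplies its substrate. Rsad2 was at 23.6, 25.1 and 27.4 CPM in WT, 18.9, 18.2 and 18.5 CPM in APP/PS1 and 62.2, 63.0 and 61.8 CPM in cKO. It was lower in all 3 APP/PS1 libraries than in any WT library and 3.36-fold higher in cKO than in APP/PS1, with log2 changes of -0.45 (SE 0.06, edgeR adjusted p = 5.84e-07), 1.75 (SE 0.05, adjusted p = 6.39e-20) and, against WT, 1.30 (SE 0.05, adjusted p = 1.36e-17). That was the largest change of any member between cKO and WT in this fit. Cmpk2 was at 8.39, 7.68 and 7.74 CPM in WT, 8.08, 8.66 and 7.87 CPM in APP/PS1 and 16.1, 15.7 and 16.5 CPM in cKO. WT and APP/PS1 overlapped (log2 change 0.05, SE 0.09, adjusted p = 0.677), and cKO was 1.96-fold above APP/PS1 and 2.03-fold above WT, by log2 changes of 0.97 over APP/PS1 (SE 0.08, adjusted p = 8.81e-11) and 1.02 over WT (SE 0.08, adjusted p = 3.79e-11).

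The Oas3, Rsad2, Oasl1 and Oas2 levels moved between groups together with the neutrophil markers, whose summed level was 1534 CPM in APP/PS1, 3645 CPM in WT and 10390 CPM in cKO, and their part in these changes was not tested.

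**Figure D3:**
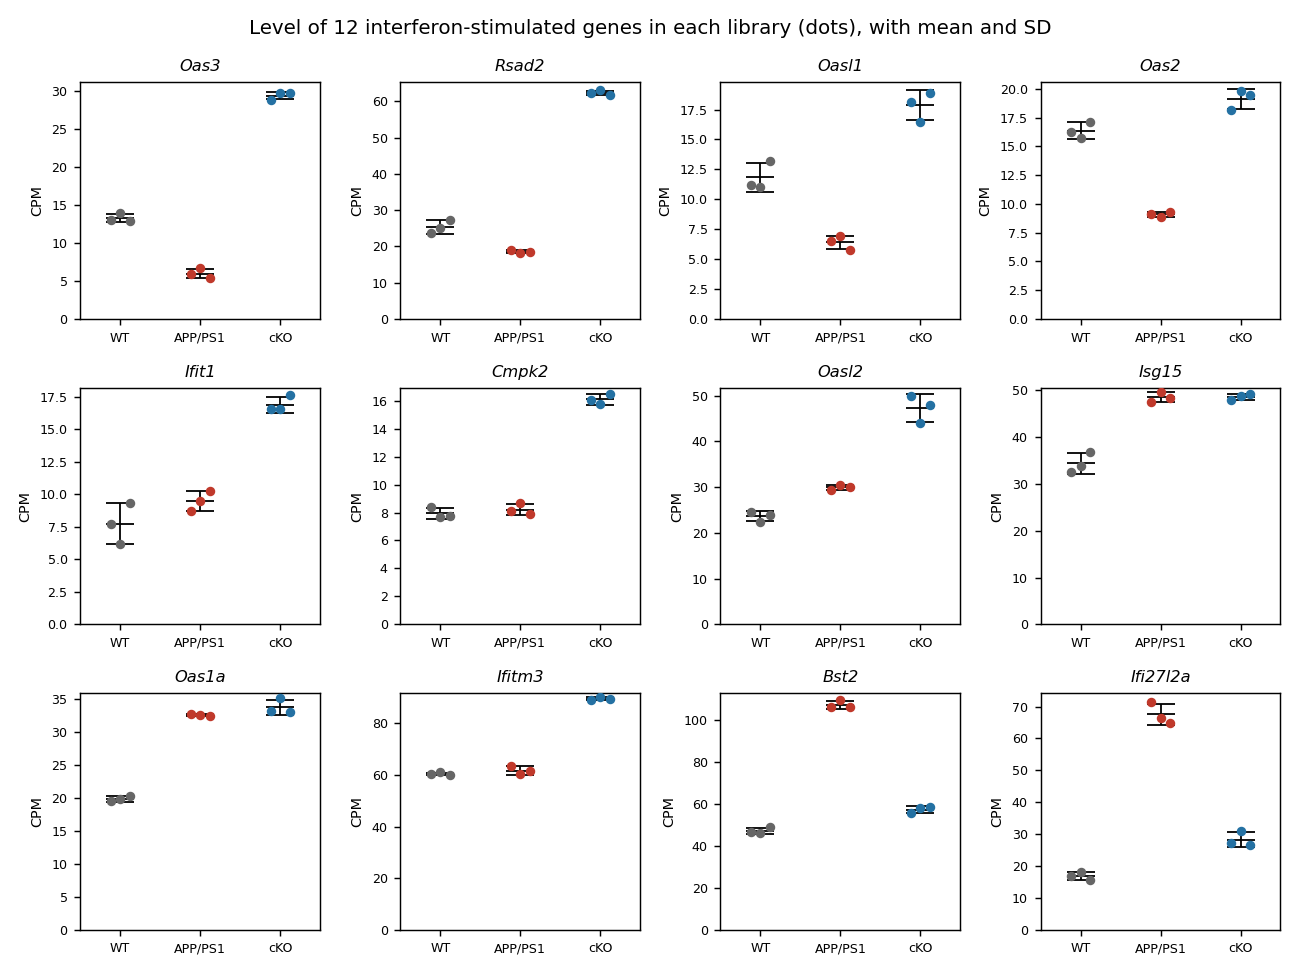
CPM (vertical axes, starting at 0) of 12 members in each library of WT, APP/PS1 and cKO; dots are libraries and bars the mean and SD (n = 3). Oas3, Rsad2, Oasl1 and Oas2 are lowest in APP/PS1 and highest in cKO, Bst2 and Ifi27l2a peak in APP/PS1, and Isg15 and Oas1a sit at like levels in both amyloid groups.

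The Ifit genes, a family with members that bind viral RNA lacking host cap marks, were all higher in cKO than in WT in the main edgeR fit. Ifit1 was at 7.74, 6.21 and 9.30 CPM in WT, 8.69, 9.47 and 10.2 CPM in APP/PS1 and 16.5, 16.5 and 17.6 CPM in cKO. WT and APP/PS1 overlapped, and cKO stood clear of both, with a log2 change of 0.83 over APP/PS1 (SE 0.10, edgeR adjusted p = 1.13e-07) and 1.12 over WT (SE 0.10, adjusted p = 1.28e-09). Ifit2 was at 28.0, 29.6 and 29.9 CPM in WT, 36.5, 35.03 and 35.2 CPM in APP/PS1 and 51.7, 49.2 and 50.4 CPM in cKO. It rose by 0.50 in cKO against APP/PS1 (SE 0.05, adjusted p = 1.01e-09) and by 0.79 against WT (SE 0.05, adjusted p = 2.15e-13). Ifit3 was at 27.0, 28.9 and 34.1 CPM in WT, 33.9, 36.2 and 38.4 CPM in APP/PS1 and 35.5, 38.4 and 38.9 CPM in cKO. Its amyloid groups overlapped each other (log2 change 0.06, SE 0.07, adjusted p = 0.524), and cKO was 0.33 above WT (SE 0.07, adjusted p = 0.000989). That rise of Ifit3 over WT was 0.13 and did not pass on log2(TPM + 1) (limma adjusted p = 0.163). Ifit3b had means of 5.56, 8.59 and 8.56 CPM and was 0.63 above WT in APP/PS1 (SE 0.12, adjusted p = 4.61e-05), or 0.2 and not past the threshold on log2(TPM + 1). The rises of Ifit1, Ifit2 and Ifit3 in APP/PS1 were 0.29, 0.29 and 0.27 with TMM and turned to -0.08, -0.10 and -0.11 on log2(TPM + 1). Ifit3 and Ifit3b share 51.2% and 45% of their 50-nt windows with other genes, mostly each other, so reads could have been split between them.

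Isg15, a ubiquitin-like protein joined to other proteins or secreted, was at 32.6, 33.8 and 36.8 CPM in WT, 47.6, 49.7 and 48.3 CPM in APP/PS1 and 47.8, 48.7 and 49.2 CPM in cKO. Both amyloid groups lay above WT and overlapped each other. The log2 change was 0.50 in APP/PS1 against WT (SE 0.05, edgeR adjusted p = 2.75e-09) and 0.00 in cKO against APP/PS1 (SE 0.05, adjusted p = 0.966). With offsets for GC content and transcript length these became 0.02 (adjusted p = 0.754) and 0.38 (adjusted p = 1.37e-08), so the step at which Isg15 rose depended on the scale, while its change in cKO against WT was 0.50 with TMM (SE 0.05, adjusted p = 3.73e-09) and 0.40 with the offsets. Isg20, a 3′ exonuclease of RNA, had means of 6.70, 6.04 and 10.7 CPM and rose by 0.83 in cKO against APP/PS1 (SE 0.10, adjusted p = 1.13e-07). Its change in APP/PS1 was -0.15 with TMM (SE 0.11, adjusted p = 0.251). It was called lower there with the offsets (-0.57, adjusted p = 5.96e-05) and on log2(TPM + 1) (-0.54, limma adjusted p = 0.000153).

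The proteins that act at membranes split in APP/PS1. Ifitm3, which blocks fusion of virus with endosomes and also binds gamma-secretase, was at 60.2, 60.9 and 60.04 CPM in WT, 63.4, 60.2 and 61.4 CPM in APP/PS1 and 88.9, 90.1 and 89.3 CPM in cKO. WT and APP/PS1 overlapped (log2 change 0.03, SE 0.04, edgeR adjusted p = 0.55), and cKO was 0.54 above APP/PS1 (SE 0.04, adjusted p = 4.53e-12) and 0.57 above WT (SE 0.04, adjusted p = 1.9e-12). With GC and length offsets Ifitm3 was 0.45 lower in APP/PS1 than in WT on the log2 scale, a change of -0.45 (adjusted p = 9.01e-12). Bst2, or tetherin, which holds budding virus at the cell surface, was at 46.9, 46.2 and 49.0 CPM in WT, 106, 110 and 106 CPM in APP/PS1 and 55.8, 58.0 and 58.5 CPM in cKO. The APP/PS1 libraries stood apart from both other groups at 2.27-fold the WT level, with log2 changes of 1.18 against WT (SE 0.04, adjusted p = 3.82e-19) and -0.90 in cKO against APP/PS1 (SE 0.04, adjusted p = 1.14e-16). cKO stayed 0.28 above WT (SE 0.04, adjusted p = 5.75e-06).

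Ifi27l2a, a small mitochondrial protein of the Ifi27 family, changed most in APP/PS1. It was at 16.8, 18.1 and 15.5 CPM in WT, 71.3, 66.3 and 65.0 CPM in APP/PS1 and 27.1, 30.9 and 26.7 CPM in cKO. The 3 groups did not overlap. It was 4.02-fold higher in APP/PS1 than in WT (log2 change 2.01, SE 0.06, edgeR adjusted p = 6.57e-20), fell by 1.26 on the log2 scale in cKO against APP/PS1 (SE 0.06, adjusted p = 3.71e-16), and remained 0.75 above WT there (SE 0.07, adjusted p = 1.32e-09). Xaf1, a pro-apoptotic partner of XIAP, had means of 15.3, 21.9 and 16.9 CPM, a rise of 0.52 in APP/PS1 (SE 0.07, adjusted p = 7.08e-07) and a change of -0.37 in cKO (SE 0.07, adjusted p = 7.37e-05). Ifi44, the member with the lowest level, had 50 to 71 counts in WT, 73 to 80 in APP/PS1 and 51 to 63 in cKO. It rose by 0.47 (SE 0.15, adjusted p = 0.00958), or 0.06 on log2(TPM + 1) where it did not pass, and then changed by -0.50 (SE 0.16, adjusted p = 0.00761), and cKO overlapped WT. Ifi35, a partner of Nmi, had means of 23.6, 30.2 and 25.7 CPM, with log2 changes of 0.35 and -0.23 (adjusted p = 5.59e-06 and 0.00108) that turned to -0.10 and 0.13 with GC and length offsets. Rtp4, which restrains interferon signalling by binding Tbk1, had means of 13.4, 19.5 and 21.7 CPM and was 0.54 above WT in APP/PS1 (SE 0.08, adjusted p = 1.77e-06) and 0.69 above it in cKO (SE 0.08, adjusted p = 3.1e-08). The first of these was 0.08 and did not pass on log2(TPM + 1).

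The DNA-binding p200 proteins, clustered on chromosome 1, did not move together. Ifi204 had means of 52.4, 58.8 and 68.95 CPM and was 0.40 higher in cKO than in WT (SE 0.05, edgeR adjusted p = 1.62e-07). Its rise of 0.17 in APP/PS1 (adjusted p = 0.0056) turned to -0.06 with GC and length offsets and to -0.23 on log2(TPM + 1). Ifi207 had means of 94.9, 78.6 and 87.5 CPM. It fell by 0.27 on the log2 scale in APP/PS1 (SE 0.04, adjusted p = 3.64e-06) and was the only member that passed as lower than WT in cKO (-0.12, SE 0.04, adjusted p = 0.0221). Ifi211 had means of 13.8, 16.5 and 14.3 CPM, and its log2 change of 0.26 in APP/PS1 had an adjusted p of 0.0501, or 0.00121 with the replicate number as a block. Of its 50-nt windows, 72.9% occur in other genes, most often Ifi205, as do 30.2% of those of Ifi204, most often Ifi211, so the 3 counts are not independent of the way reads were assigned.

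The remaining members moved by less. Slfn5 had means of 49.2, 56.7 and 61.9 CPM and was 0.33 above WT in cKO (SE 0.04, edgeR adjusted p = 7.64e-07). Slfn8 (36.6, 35.2 and 38.07 CPM) passed in no comparison in the main edgeR fit. In APP/PS1 against WT, Slfn8 was called lower when edgeR used unscaled library sizes (-0.19, adjusted p = 0.00182), with limma on log2(FPKM + 1) (-0.16, adjusted p = 0.0209) and with limma on log2(TPM + 1) (-0.41, adjusted p = 4.05e-05). For Slfn5 the 0.20 rise in APP/PS1 (adjusted p = 0.000385) turned to -0.18 on log2(TPM + 1), and 11.8% of its windows occur in other genes, most often the antisense Slfn5os. Parp14, an ADP-ribosyltransferase, had means of 83.2, 77.96 and 94.9 CPM and rose by 0.28 in cKO against APP/PS1 (SE 0.04, adjusted p = 2.62e-07). Trim30a, which restrains NF-kappaB signalling, had means of 99.4, 100.2 and 116.3 CPM and rose by 0.22 in the same comparison (SE 0.04, adjusted p = 5.2e-05).

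Some of the smaller changes lay near the threshold, and their calls were lost or gained when a single library was left out. In APP/PS1 against WT, Ifit1 ranged from 0.15 to 0.29 (edgeR adjusted p = 0.0641 to 0.244) and Irf9 from 0.11 to 0.16 (adjusted p = 0.06 to 0.141), neither past the threshold, without APP/PS1 2, APP/PS1 3, WT 1 or WT 2. Zbp1 was at 0.17 to 0.22 (adjusted p = 0.0627 to 0.135) without APP/PS1 1, APP/PS1 3, WT 2 or WT 3. Parp14 was at -0.1 to -0.09 (adjusted p = 0.0513 to 0.0853) without any 1 of the APP/PS1 libraries, WT 2 or WT 3. Ifih1 was at 0.11 to 0.12 (adjusted p = 0.0523 to 0.0772) without APP/PS1 1, APP/PS1 2 or WT 3. The call was also lost for Ddx58 without APP/PS1 2 or WT 3 (-0.16 to -0.14), and without WT 2 for Ifi44 (0.36, adjusted p = 0.0664) and Ifi204 (0.11, adjusted p = 0.0711). Ifi211 passed without APP/PS1 2, WT 3 or cKO 2 (0.26 to 0.36). In cKO against APP/PS1, Slfn5 was at 0.08 to 0.11 (adjusted p = 0.0758 to 0.138) without cKO 1 or APP/PS1 2. Without APP/PS1 2, Slfn8 (0.14, adjusted p = 0.0391) and Ifi211 (-0.31, adjusted p = 0.0134) passed, as did Rtp4 without cKO 3 (0.2, adjusted p = 0.0425). In cKO against WT, Ddx58 was at 0.13 to 0.19 (adjusted p = 0.0568 to 0.124) without cKO 1, cKO 2, WT 1 or WT 2. Ifi207 was at -0.11 to -0.08 (adjusted p = 0.0575 to 0.141) without cKO 1, cKO 2, WT 1 or WT 3.

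Levels of different genes were compared in TPM, which divides by transcript length. Ifitm3, Bst2, Isg15 and Ifi27l2a were the 4 most abundant members in every group. Ifitm3 led in WT at 238 TPM ± 1.64 and in cKO at 307 TPM ± 1.15, and Ifi27l2a led in APP/PS1 at 292 TPM ± 15.0 (SD, n = 3), up from rank 4 in WT at 94.98 TPM ± 7.28. Rsad2 moved from rank 26 in WT and 28 in APP/PS1 to rank 15 in cKO.

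These 4 genes are also the only members whose longest transcript is under 1000 nt. Their changes moved when offsets for GC content and transcript length were fitted together. Offsets fitted to GC content and length in each library lowered the APP/PS1 change of Ifi27l2a from 2.01 to 1.53, that of Bst2 from 1.18 to 0.73 and that of Isg15 from 0.50 to 0.02. The long transcripts of Oas3 and Rsad2 moved by less, from -1.16 to -0.98 and from -0.45 to -0.44. Shifts were not limited to the 4 short transcripts, since Ifi35 (1362 nt) moved from 0.35 to -0.10 and Isg20 (1087 nt) from -0.15 to -0.57. In cKO against APP/PS1 the offsets moved Ifi27l2a from -1.26 to -0.88, Bst2 from -0.90 to -0.54 and Ifitm3 from 0.54 to 0.92. Member medians with the offsets were 0.02, 0.32 and 0.40 in the 3 comparisons. The 2 largest rises and the Oas and Rsad2 changes thus kept their direction, while the median rise of the set in APP/PS1 was near 0 on that scale. GC content and length were not varied separately in these offsets, and what set the shifts was not tested.

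**Figure D4:**
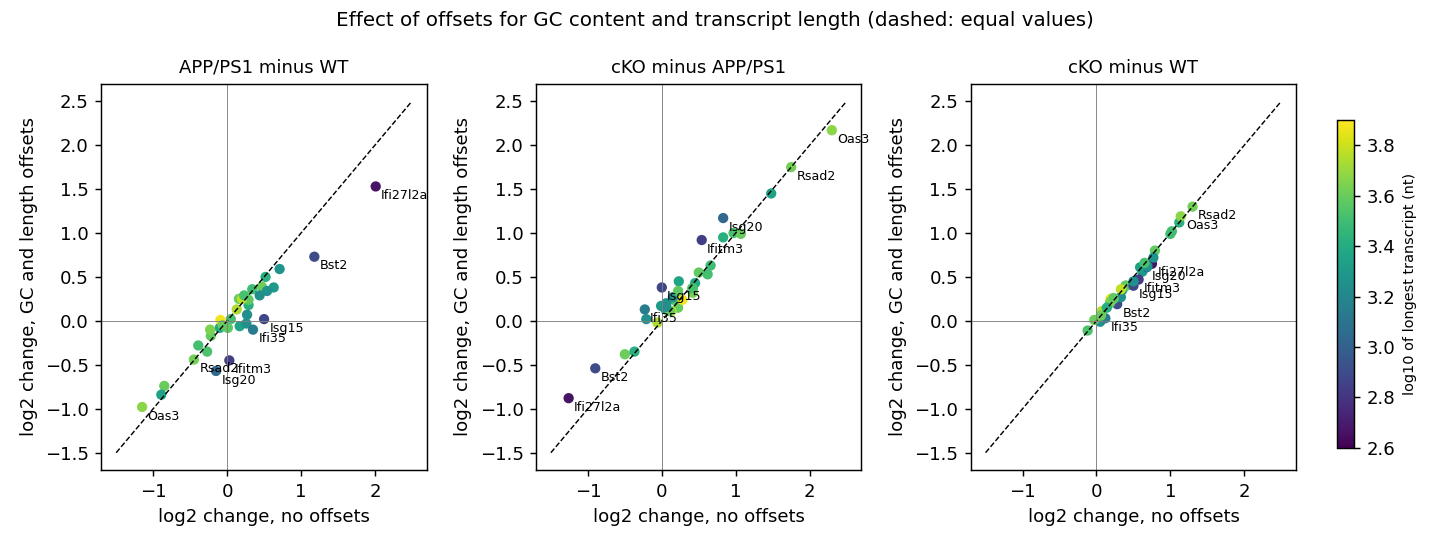
Log2 change of each member without (horizontal) and with (vertical) offsets for GC content and transcript length in the 3 comparisons; colour is the log10 length of the longest transcript in nt and the dashed line marks equal values. Short transcripts (dark) such as Isg15, Ifitm3, Bst2 and Ifi27l2a lie below the line in APP/PS1 minus WT and above it in cKO minus APP/PS1, while Oas3 and Rsad2 lie near it.

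Upstream of the set, 9 of 21 listed interferon genes had a row and Ifnb1 and Ifng were the ones with enough counts to test. Ifnb1, which encodes interferon beta, had 144 to 153 counts in WT and means of 7.38 CPM ± 0.273, 9.42 CPM ± 0.458 and 11.99 CPM ± 0.487 (SD, n = 3). It rose by 0.35 in APP/PS1 (SE 0.09, edgeR adjusted p = 0.00154) and by a further 0.35 in cKO (SE 0.08, adjusted p = 0.000916), but on the TPM scale its means were 24.1 for WT, 23.4 for APP/PS1 and 34.2 for cKO, without the first step. Ifng, the type II interferon of T and NK cells, was at 1.17, 3.64 and 2.55 CPM, 1.64 higher in APP/PS1 than in WT (SE 0.19, adjusted p = 3.98e-08) and 0.51 lower on the log2 scale in cKO than in APP/PS1 (-0.51, SE 0.17, adjusted p = 0.012). Markers of T and NK cells had the same order of groups, with mean sums of 46.7, 73.5 and 54.6 CPM, 7 of 9 tested higher in APP/PS1 than in WT and 7 lower in cKO than in APP/PS1, and their part was not tested. No library had more than 2 counts of any of the 5 listed interferon alpha genes with a row.

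Of 15 receptor and signalling genes, 1 was higher and 9 were lower in APP/PS1 than in WT, and 8 were higher and 1 lower in cKO than in APP/PS1. Against WT, 4 were higher and 4 lower in cKO. The shares over all tested genes were 26.9% higher and 32% lower, 27.3% and 27.7%, and 24.7% and 23% in these comparisons. The receptor chains parted: Ifnar1 changed by -0.23 in APP/PS1 (SE 0.03, edgeR adjusted p = 2.3e-06) and Ifnar2 by 0.37 (SE 0.03, adjusted p = 7.81e-11). In cKO against APP/PS1, Ifnar1 rose by 0.23 (SE 0.03, adjusted p = 2.33e-06), back to the WT mean of 154 CPM. Tyk2 and Jak1, the receptor kinases, changed by -0.45 and -0.18 in APP/PS1 and by 0.30 and 0.15 in cKO. Socs3, an inhibitor of cytokine receptors, was lower than in WT by 0.61 in APP/PS1 and by 0.55 in cKO on the log2 scale, changes of -0.61 and -0.55 (SE 0.04 each).

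The 25 tested genes of nucleic acid sensing had 3 higher and 14 lower in APP/PS1, 11 higher and 6 lower in cKO against APP/PS1, and 7 higher and 8 lower in cKO against WT, beside 26.9% and 32%, 27.3% and 27.7%, and 24.7% and 23% of all tested genes. Ikbke, a kinase that activates Irf3 and Irf7, had means of 6.45, 4.49 and 15.3 CPM, with log2 changes of -0.52 (edgeR adjusted p = 0.000223), 1.76 (adjusted p = 1.36e-14) and 1.24 (adjusted p = 5.12e-12). Samhd1, which degrades nucleotides, followed the same order at 122.7, 81.7 and 143 CPM. Cgas, the sensor of cytosolic DNA, was at 32.3, 26.6 and 32.4 CPM, and Tmem173, which encodes its partner STING, was at 197, 183 and 168 CPM. Irf1 was lower in both amyloid groups than in WT (438, 316 and 299 CPM). The log2 change of Irf3 was 0.10 in APP/PS1 (adjusted p = 0.149) and -0.12 in cKO against APP/PS1 (adjusted p = 0.0982). The RNase H2 subunit genes Rnaseh2b and Rnaseh2c rose in APP/PS1 by 0.93 and 0.51 and changed by -0.28 and -0.70 in cKO.

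A second list of 46 tested interferon-stimulated genes, none of them members, had genes called in both directions. In APP/PS1, 16 were higher and 13 lower, in cKO against APP/PS1 22 were higher and 10 lower, and in cKO against WT 30 were higher and 5 lower. The APP/PS1 counts lie near the background of 26.9% higher and 32% lower, and the backgrounds of the other comparisons were 27.3% and 27.7%, and 24.7% and 23%. Their median log2 changes were 0.05, 0.07 and 0.19. Samd9l and Helz2 followed the order of Oas3, at 33.9, 24.7 and 62.9 CPM and at 37.8, 25.2 and 52.3 CPM. Ms4a6d, of the Ms4a family, was lowest in cKO, at 77.3, 115.0 and 47.6 CPM. Ifi27, of the family of Ifi27l2a, peaked in APP/PS1 as that gene did, at 54.4, 111.3 and 60.2 CPM. Lgals3bp, a secreted lectin-binding protein, climbed in both steps (271, 550.0 and 690 CPM).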

How the data were processed

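Poly-A RNA of 9 libraries was analysed in 3 groups of 3 taken from the genotype in the labels. Per the submitters' processing notes, HISAT, Bowtie2 and DESeq2 were used with GRCm38.p6, and the role of each tool and the counting program are not given in the sources used here. The deposited table gives, per the file headers, an estimated count, an FPKM and a TPM for each gene and library. A further 9 columns of normalised values and 12 of group means were not used. After rounding to whole numbers, the estimated counts were tested with edgeR 4.0.16 (R 4.3.3): TMM scaling, filterByExpr by group, a robust quasi-likelihood fit of all 9 libraries with a mean per group, and Benjamini-Hochberg adjustment over 14696 genes at 0.05. Alternatives used DESeq2 1.42.0, limma 3.58.1 on log2 FPKM or TPM plus a pseudocount, library totals, other filters and thresholds, offsets by 10 bins each of GC content and transcript length (GENCODE M21, with a value for 98% of tested genes), a replicate block, and leaving out each library. The fitting steps were tested on simulated data. Positions and promoters came from RefSeq GRCm38.p6.

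The members and lists were chosen with earlier results of these data known. Values in every library are given for Irf7, Stat2, Irf9, Isg15, Ifit1, Ifit3, Ifitm3, Bst2 and Usp18 and for the 6 members with the largest change past the threshold in each comparison. From the other lists, a fixed set of pathway genes and up to 3 genes per list and comparison with the largest change at 1 CPM or more were eligible; 1 gene that this rule selects is not reported here. Same-numbered APP/PS1 and WT libraries deviated together from their group means (correlations 0.138 to 0.264 over 10813 genes). The labels do not say what the number marks, so the main fit has no block and its p-values ignore any pairing. A replicate block was fitted only as an alternative.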

Additional observations from a re-analysis of the deposited data

How the results depend on the processing

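Counts of members past the threshold in APP/PS1 against WT depended on the scale. They were 11 higher and 14 lower with library totals, 12 and 14 with limma on log2(FPKM + 1) or log2(FPKM + 0.1), and 5 and 19 on log2(TPM + 1). At 2-fold or more, 3 members passed in APP/PS1 (2 higher, 1 lower), 5 in cKO against APP/PS1 (4 and 1) and 4 in cKO against WT (4 and 0). On log2(TPM + 1), 3 members were lower in cKO than in APP/PS1. Against WT, 0 were lower with DESeq2 size factors, the DESeq2 Wald test or an adjusted p of 0.01, where Ifi207 did not pass.

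The member median in APP/PS1 was 0.03 with library totals or FPKM, 0.02 with GC and length offsets and -0.21 on TPM, where the median of all genes was -0.17, -0.11 and -0.16, -0.01 and -0.35. In cKO against APP/PS1 it was 0.32 with the offsets and 0.41 on TPM, where the median of all genes was -0.01 and 0.14. Against WT the member median was 0.28 with library totals, 0.26 and 0.27 on FPKM with the larger and smaller pseudocount, and 0.18 on TPM. The median of all genes was -0.12, -0.08, -0.11 and -0.17 in the same order of settings.

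On TPM the APP/PS1 change turned to -0.08 for Ifit1, -0.10 for Ifit2, -0.11 for Ifit3, -0.07 for Oasl2, -0.23 for Irf9 and Ifi204, -0.36 for Ifitm3, -0.04 for Ifi35, -0.21 for Ifih1, -0.37 for Trim30a, -0.29 for Cmpk2 and -0.18 for Slfn5. In cKO, Ifih1 turned to 0.11 against APP/PS1, and Stat2 (-0.00), Ddx58 (-0.01) and Parp14 (-0.01) lost their rise over WT. The rises of these 3 and of Irf7 and Oas2 over WT also failed to pass with library totals and FPKM, at 0.07 to 0.12. In APP/PS1, library totals gave -0.11 for Ifitm3, -0.01 for Ifih1 and -0.13 for Trim30a, and FPKM gave -0.11 for Ifitm3 and -0.12 or -0.13 for Trim30a. GC and length offsets, with or without the block, gave -0.45 for Ifitm3, -0.10 for Ifi35, -0.08 for Trim30a, 0.01 for Parp14 and -0.06 for Ifi204, and 0.13 for Ifi35 in cKO against APP/PS1. The cause was not tested. Another 43 changes of sign, in 12 results, involved values that passed in neither setting.

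With the replicate number as a block, 29, 29 and 30 members passed in the 3 comparisons. No call was lost, and Ifi211 (0.26 and -0.21), Rtp4 and Slfn8 (0.15 and 0.11 in cKO against APP/PS1) and Ifi35 (0.12 against WT) were added. Same-numbered libraries correlated at 0.062 to 0.264 over all 9 pairs, and those of cKO fell as low as 0.062, so the block is only a hint there. Leaving out each library in turn gave medians of 0.15 to 0.2, 0.19 to 0.25 and 0.34 to 0.43. Members past the threshold numbered 22 to 29 (14 to 20 higher, 7 to 9 lower), 25 to 27 (20 to 22 and 5 to 6) and 27 to 29 (27 to 28 and 0 to 1).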

Other observations

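The near relatives of the members were listed because their reads can be confused with them. Of 28 tested relatives, 2 were higher and 13 lower in APP/PS1 than in WT, 14 were higher and 2 lower in cKO than in APP/PS1, and 12 were higher and 7 lower in cKO than in WT. Over all tested genes the shares were 26.9% higher and 32% lower, 27.3% and 27.7%, and 24.7% and 23%. Slfn4, a schlafen of myeloid cells, was at 80.3 CPM ± 2.16 for WT, 17.3 CPM ± 0.303 for APP/PS1 and 388.5 CPM ± 12.2 for cKO (SD, n = 3), against 36.6, 35.2 and 38.07 CPM for the member Slfn8. Ifitm6 was at 38.4, 11.7 and 147.0 CPM and Slfn1 at 11.03, 3.54 and 42.5 CPM in the same order of groups. The log2 changes of Slfn4 were -2.21, 4.49 and 2.27, those of Ifitm6 -1.71, 3.65 and 1.94, and those of Slfn1 -1.64, 3.59 and 1.95, each past the threshold in the edgeR fit. The summed neutrophil markers had the same order of groups, and their part was not tested.

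Among 9131 genes at 10 CPM or more on average, the 5 that followed the mean standardised level of the members most closely over the 9 libraries were Rnf19a (Pearson r = 0.996), Mbd2 (0.991), Optn (0.988), 4931406P16Rik (0.987) and Washc5 (0.987). All 5 climbed from WT through APP/PS1 to cKO, Rnf19a at 45.3, 50.1 and 62.1 CPM. The 9 libraries share 3 group means, so these correlations are a description and carry no test.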
